A study of Mus musculus with 6 samples.

Results

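Axon guidance ligands and receptors were examined in whole male mouse embryos that were wildtype or homozygous mutant for *Smchd1*, which encodes a chromatin protein of the SMC-related family needed for X chromosome inactivation. The members were chosen by symbol as the ephrins, semaphorins of classes 3 to 7, Slits and netrins 1, 3, 4 and 5 (ligands) and the Eph receptors, plexins, neuropilins, Robo proteins, Dcc and Unc5 proteins (receptors). There were 69 such genes, 35 ligands and 34 receptors, among 23097 loci with a gene symbol. RNA-seq was performed on 6 embryos at E9.5, 3 Smchd1+/+ and 3 homozygous for the MommeD1 allele (Smchd1MommeD1/MommeD1). The embryos came from matings between heterozygous parents and were frozen after dissection, and the yolk sac of each was used to determine its genotype. The labels describe all 6 as a cross of C57Bl6/J and FVB/n, whereas the text of the study describes another, backcrossed, background for its E9.5 RNA-seq embryos, so the background is uncertain. Exact age within that day and litter were not among the labels.

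The deposited values are FPKM, the fragments assigned to a locus scaled for transcript length and for the number of mapped fragments, so that levels can be compared between genes. Each genotype had 1 value per locus, pooled over its 3 embryos. The spread between embryos could therefore not be computed and no test was run, and the authors' own test values were not used. The depth of each library is unknown, and each difference below is a description of pooled values. In whole embryos, fewer cells of a type and less RNA per cell cannot be told apart. The fold differences are ratios of mutant to wildtype values after 0.1 FPKM was added to both, which understates the differences of low genes. *Smchd1* itself was listed at 2.12 FPKM in Smchd1MommeD1/MommeD1 and 34.0 FPKM in Smchd1+/+ embryos, 15.4-fold lower in the mutant pool.

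Growing axons are steered by cues that attract or repel the growth cone through receptors on its surface. Ephrins are held in the membrane and signal to Eph receptor tyrosine kinases on the neighbouring cell. Class 3 semaphorins are secreted and act through complexes of neuropilins and plexins, whereas most other vertebrate semaphorins are membrane-bound and bind plexins directly. Slits repel axons through Robo receptors at the midline of the neural tube. Netrins attract axons through Dcc and repel them through Unc5 proteins. At midgestation the same families also direct neural crest cells, somite boundaries and blood vessels, so their transcripts in a whole embryo do not come from neurons alone.

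Most axon guidance genes lay within 1.5-fold in the 2 pools, although their ratios spread somewhat more widely than those of all symbol loci. Of the 69 members, 58 had a mean of 1 FPKM or more over the genotypes, 31 ligands and 27 receptors, and only these were counted. At least 1.5-fold higher in Smchd1MommeD1/MommeD1 embryos were 3 members, the receptors *Epha3*, *Robo4* and *Dcc*, which is 5.17% of those counted against 3.2% of all 11980 symbol loci of the same minimum. At least 1.5-fold lower was 1 member, the ligand *Sema3e*, which is 1.72% against 1.08% of all such loci. These shares of so few genes are near the background. The other 54 members lay within 1.5-fold.

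All 4 genes past 1.5-fold were of low abundance. They belonged to the 26 members with a mean of 1 to 5 FPKM, 11.5% of which were higher and 3.85% lower by that factor. Among all 3287 symbol loci of that abundance, 8.28% were at least 1.5-fold higher and 2.22% at least 1.5-fold lower. None of the 32 members with a mean of 5 FPKM or more was past 1.5-fold in either direction. The median size of the log2 ratio, whatever its sign, was 0.263 for members and 0.172 for symbol loci at 1 to 5 FPKM. At 5 FPKM or more it was 0.117 for members and 0.098 for symbol loci. The largest difference among the 10 members at 20 FPKM or more in both genotypes was 1.35-fold, for *Efna2*.

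**Figure D1:**
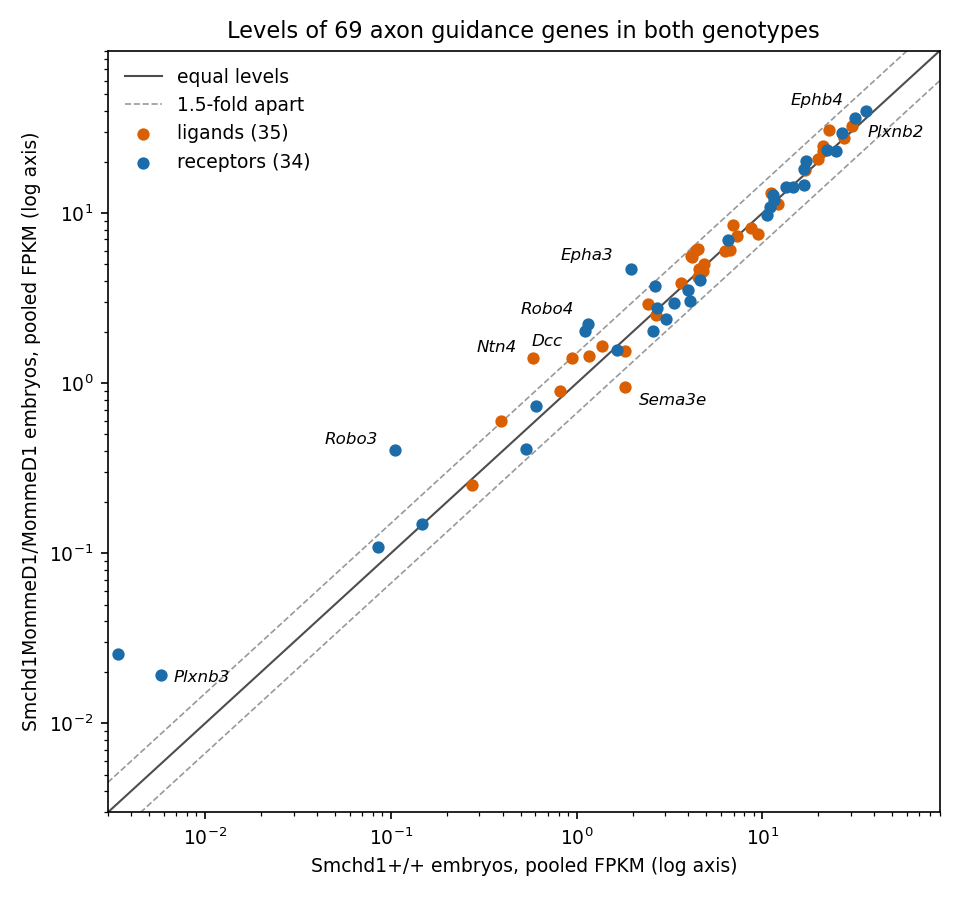
Pooled FPKM of all 69 members in Smchd1+/+ (horizontal, log axis) and Smchd1MommeD1/MommeD1 embryos (vertical, log axis), each point being 1 gene, with ligands and receptors coloured apart. The abundant genes, led by *Ephb4* and *Plxnb2*, sit between the dashed lines of 1.5-fold, and the points outside those lines have low values.

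With a lower bar of 1.2-fold, which was chosen after the values were seen, 13 members were higher, which is 22.4% against 10.6% of all symbol loci above the same minimum, and 5 were lower, which is 8.62% against 6.77%. These shares are not matched for abundance. At 1 to 5 FPKM, 9 of 26 members were higher and 4 lower, beside 727 and 380 of 3287 loci. At 5 FPKM or more, 4 of 32 members were higher and 1 lower, beside 540 and 431 of 8693 loci. The 10 between 1.2-fold and 1.5-fold higher were the ligands *Sema7a*, *Sema5b*, *Ntn3*, *Slit1*, *Efna2*, *Sema6c*, *Slit2*, *Sema6b* and *Sema4g* and the receptor *Unc5a*. The 4 between these bars on the lower side were the receptors *Robo2*, *Plxna4* and *Epha1* and the ligand *Efna1*. Of all these, *Efna2*, *Slit2*, *Unc5a*, *Robo2*, *Plxna4* and *Epha1* are among the 13 members whose locus is shared with other entries. Their reads may therefore be harder to assign. The median log2 ratio of mutant to wildtype was 0.07 over the 58 members, with 35 above 0. Over all 11980 symbol loci of the same minimum it was -0.01, with 5767 above 0. The interquartile range was -0.09 to 0.24 on this scale for the members and -0.11 to 0.11 for all symbol loci. Ligands and receptors had similar medians, 0.08 and 0.06. Rescaling the 2 pools to a common total or upper quartile moved the median of all loci by at most 0.02. The order of abundance of the 58 members was nearly kept between genotypes (Spearman's rho 0.98 across genes, which are not independent replicates).

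Upstream sequences are shown for *Epha3*, *Robo4* and *Sema3e*, the members past 1.5-fold that had a promoter entry. They are given for their content of CG dinucleotides, the sites of DNA methylation. Each run is the 250 bases before the RefSeq transcription start in GRCm38.p6, the mm10 assembly, written 5′ to 3′ on the strand of the gene with each CG in capitals. The interval of *Epha3* is chr16:63864176-63864425 on the minus strand, that of *Robo4* is chr9:37401722-37401971 on the plus strand, and that of *Sema3e* is chr5:14025026-14025275 on the plus strand.
Epha3: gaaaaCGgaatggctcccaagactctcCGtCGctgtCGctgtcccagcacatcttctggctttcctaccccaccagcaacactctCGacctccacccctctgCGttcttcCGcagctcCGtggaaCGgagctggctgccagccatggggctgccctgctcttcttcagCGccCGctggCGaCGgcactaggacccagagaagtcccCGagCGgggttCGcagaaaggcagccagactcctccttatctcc
Robo4: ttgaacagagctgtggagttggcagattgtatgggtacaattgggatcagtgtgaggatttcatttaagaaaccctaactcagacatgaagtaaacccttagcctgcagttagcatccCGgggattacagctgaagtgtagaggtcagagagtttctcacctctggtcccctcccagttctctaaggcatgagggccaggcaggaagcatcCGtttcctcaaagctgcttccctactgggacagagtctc
Sema3e: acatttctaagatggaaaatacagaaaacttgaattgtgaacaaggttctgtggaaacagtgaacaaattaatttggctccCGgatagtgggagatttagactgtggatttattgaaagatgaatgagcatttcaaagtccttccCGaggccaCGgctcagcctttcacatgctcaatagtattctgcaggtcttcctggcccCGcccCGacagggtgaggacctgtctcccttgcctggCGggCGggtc

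*Epha3* had 16 CG dinucleotides in this window, *Sema3e* 7 and *Robo4* 2. RefSeq promoters were matched for 59 of the 69 members, and *Dcc*, *Efnb3*, *Ntn1*, *Plxna1*, *Plxna4*, *Sema3b*, *Sema3f*, *Sema6a*, *Slit1* and *Unc5d* had no entry. The matched members had a median of 16 CG dinucleotides against 6 over 27025 genes, all of them held at least 1 against 91.7% of all genes, and 74.6% held 10 or more against 38.2%. Those 27025 genes were taken whatever their level in these embryos, so they are not a background of like expression. A CG reads the same on both strands, so each was counted once, and where a gene had several starts the outermost was taken. Of the 49 matched members that were counted, the 38 with 10 or more CG had log2 ratios from -0.33 to 1.23 with a median of 0.07. The 11 with fewer ranged from -0.86 to 0.90 with a median of -0.07. Both groups thus held members above and below 0, and no methylation was measured in these embryos.

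Among EphA receptors, *Epha3* stood apart from the rest. *Epha3*, a receptor of motor axons and mesenchyme that binds A-type ephrins, lies on chromosome 16 of mm10 from 63543407 to 63864158. It was listed at 4.72 FPKM in Smchd1MommeD1/MommeD1 and 1.96 FPKM in Smchd1+/+ embryos, 2.34-fold higher in the mutant pool (log2 ratio 1.23), the largest difference of any counted member. Its share of the summed EphA level was 13.7% in mutant and 6.10% in wildtype embryos.

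The other EphA receptors differed little. *Epha4*, which acts in hindbrain segmentation and motor axon choice and was the most abundant EphA gene, was at 12.8 and 11.4 FPKM in mutant and wildtype embryos. *Epha7*, a receptor of the neural tube, was at 9.80 and 10.6 FPKM. *Epha2* and *Epha1*, receptors with roles in epithelia, were at 3.55 against 3.95 FPKM and at 2.39 against 3.01 FPKM, the latter from a locus shared with 2 other entries. The EphA median was -0.11 on the log2 scale over 5 genes, below 0 under each of the scalings tried, although the summed level was 1.07-fold higher because of *Epha3*.

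The EphB receptors, which bind B-type ephrins, were the more abundant branch, with a summed level of 80.1 FPKM in the mutant and 72.5 FPKM in the wildtype pool. *Ephb4*, the receptor of venous endothelium for ephrin-B2, was the most abundant of all members, at 39.8 FPKM in the mutant and 36.0 FPKM in the wildtype pool. It made up 49.7% of the EphB level in both genotypes. *Ephb2* was at 20.3 and 17.1 FPKM and *Ephb3* at 14.3 and 13.4 FPKM, although the authors' program marked its comparison at both loci as failed, so these levels are less certain. *Ephb1* was at 2.96 and 3.32 FPKM, and *Ephb6*, whose kinase domain is inactive, was at 2.77 and 2.72 FPKM. None of the 5 was past 1.2-fold.

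The ephrins, ligands of these receptors, showed no member past 1.5-fold. *Efna2* was the most abundant A-type ephrin, at 30.6 FPKM in the mutant and 22.7 FPKM in the wildtype pool, 1.35-fold higher. Its entry lies in a stretch of chromosome 10 that the table gives to 47 entries, so reads near it may be hard to assign. *Efna1*, an ephrin of blood vessels, went the other way, at 7.51 and 9.49 FPKM, 1.26-fold lower in the mutant pool. *Efna4* (17.9 and 16.9 FPKM), *Efna5* (11.3 and 12.2 FPKM) and *Efna3* (2.51 and 2.68 FPKM) lay within 1.1-fold. Thus the A-type ephrins did not move in 1 direction, with 2 of 5 above 0.

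All 3 B-type ephrins were listed higher in the mutant pool, by small factors. *Efnb3*, a midline barrier to corticospinal axons and the most abundant ephrin, was at 32.6 FPKM in the mutant and 30.5 FPKM in the wildtype pool. *Efnb2*, the arterial partner of *Ephb4*, was at 27.7 and 27.4 FPKM, nearly level. *Efnb1*, an X-linked ligand with roles in neural crest and skull, was at 24.9 and 21.2 FPKM, 1.18-fold higher.

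**Figure D2:**
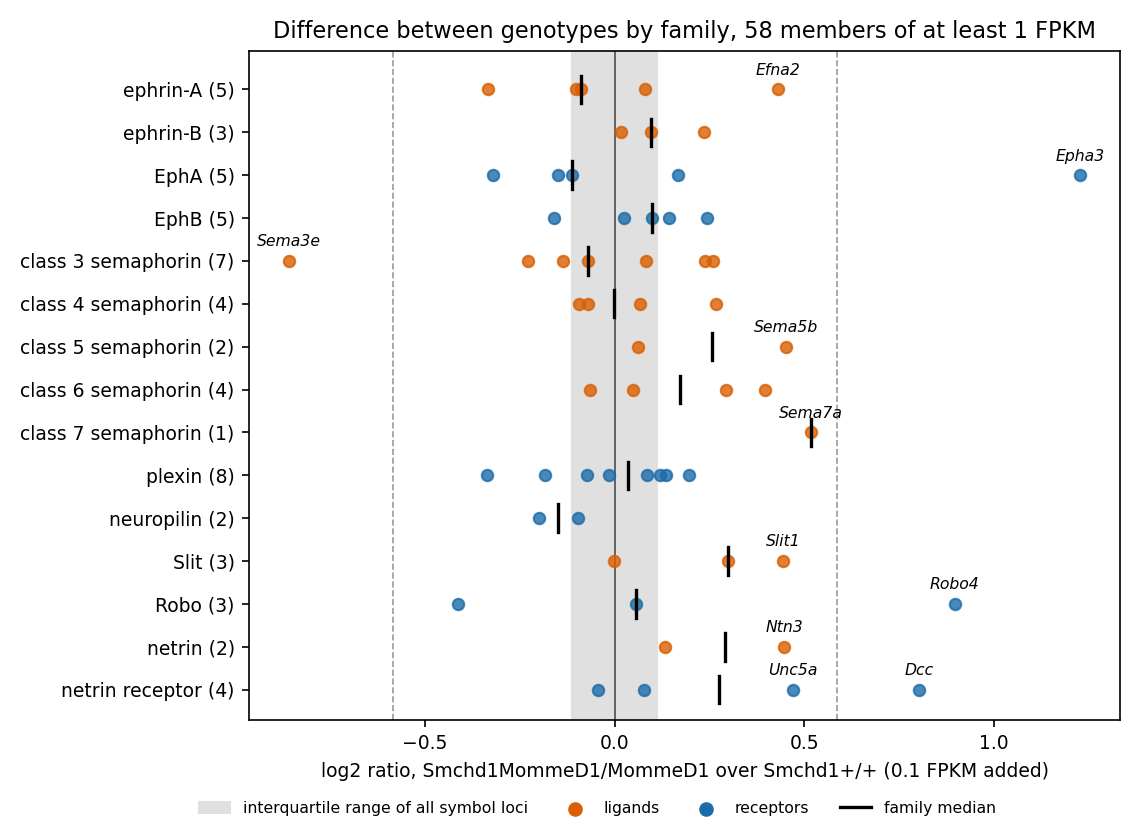
Log2 ratio of Smchd1MommeD1/MommeD1 to Smchd1+/+ for the 58 members with a mean of 1 FPKM or more (points, ligands and receptors coloured apart), 1 row per family with the number of genes in brackets and a bar at the family median. The grey band is the interquartile range of all symbol loci, from -0.11 to 0.11, and the dashed lines mark 1.5-fold; *Epha3*, *Robo4* and *Dcc* lie beyond the right line and *Sema3e* beyond the left.

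Of the class 3 semaphorins, the secreted class, *Sema3e* was the 1 member past 1.5-fold. *Sema3e*, which repels blood vessels from somites by binding plexin-D1 without a neuropilin, lies on chromosome 5 from 14025276 to 14256689. It was listed at 0.954 FPKM in Smchd1MommeD1/MommeD1 and 1.81 FPKM in Smchd1+/+ embryos, 1.81-fold lower in the mutant pool. Its receptor *Plxnd1*, an endothelial plexin, was at 29.4 and 26.8 FPKM. The ligand was thus the scarcer and the lower of this pair, while the receptor was 1.10-fold higher.

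The other class 3 semaphorins lay within 1.2-fold. *Sema3f*, a ligand of neuropilin-2 and the most abundant of the class, was at 13.1 FPKM in the mutant and 11.1 FPKM in the wildtype pool. *Sema3a*, the founding repellent that acts through neuropilin-1, was at 8.21 and 8.63 FPKM. *Sema3c*, with a role in the cardiac outflow tract, was at 6.09 and 6.70 FPKM. *Sema3d* (3.88 and 3.66 FPKM), *Sema3b* (1.54 and 1.82 FPKM) and *Sema3g* (1.65 and 1.36 FPKM) were lower in level, and of the 7 genes of the class 3 were above 0 and 4 below. Their summed level was 35.4 FPKM in the mutant and 35.1 FPKM in the wildtype pool.

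The counted semaphorins of classes 4 to 7 lay between 1.07-fold lower (*Sema4d*) and 1.43-fold higher (*Sema7a*) in the mutant pool. *Sema4c*, a plexin-B2 ligand, was the most abundant semaphorin at 20.8 FPKM in the mutant and 19.8 FPKM in the wildtype pool. *Sema4b* and *Sema4d*, the latter a plexin-B1 ligand, were at 4.58 against 4.82 FPKM and at 4.20 against 4.49 FPKM, and *Sema4g* was at 2.94 against 2.43 FPKM. The class 4 median was within 0.02 of 0 and changed sign with the scaling.

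In class 5, *Sema5b* was at 6.07 FPKM in the mutant and 4.41 FPKM in the wildtype pool, 1.37-fold higher, and *Sema5a* was at 5.05 and 4.84 FPKM. In class 6, whose members bind plexin-A proteins, *Sema6c* was at 5.55 and 4.19 FPKM, 1.32-fold higher. *Sema6a*, the most abundant of that class, was at 5.98 and 6.25 FPKM, *Sema6d* at 4.71 and 4.54 FPKM and *Sema6b* at 1.45 and 1.17 FPKM. *Sema7a*, the sole class 7 member, is anchored to the membrane by a lipid and promotes axon growth. It was at 1.40 and 0.946 FPKM, 1.43-fold higher and just short of the 1.5-fold bar.

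The plexins, the signalling receptors of semaphorins, had the largest summed level of the families, 125.9 FPKM in the mutant and 117.2 FPKM in the wildtype pool, and none was past 1.5-fold. *Plxnb2*, required for neural tube closure, was the most abundant at 36.1 and 31.5 FPKM, 1.15-fold higher. *Plxna1* (23.6 and 22.3 FPKM), *Plxnb1* (18.2 and 16.7 FPKM) and *Plxna2* (10.8 and 10.9 FPKM) lay within 1.1-fold. *Plxna4*, the plexin-A of sensory and sympathetic axons, was 1.26-fold lower in the mutant pool, at 2.03 and 2.59 FPKM. *Plxnc1*, the receptor of semaphorin 7A, was at 1.57 and 1.65 FPKM.

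Both neuropilins, the ligand-binding co-receptors of class 3 semaphorins and of vascular endothelial growth factor, were listed lower in the mutant pool. *Nrp2* was at 23.1 FPKM in the mutant and 24.8 FPKM in the wildtype pool, and *Nrp1* was at 14.5 and 16.7 FPKM, 1.15-fold lower. Their summed level, 37.7 and 41.5 FPKM, was the 1 summed level of the 15 families that was lower in the mutant pool. With both pools set to the same total FPKM, class 3 semaphorins, 1.01-fold higher as deposited, also came out lower in the mutant pool.

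**Figure D3:**
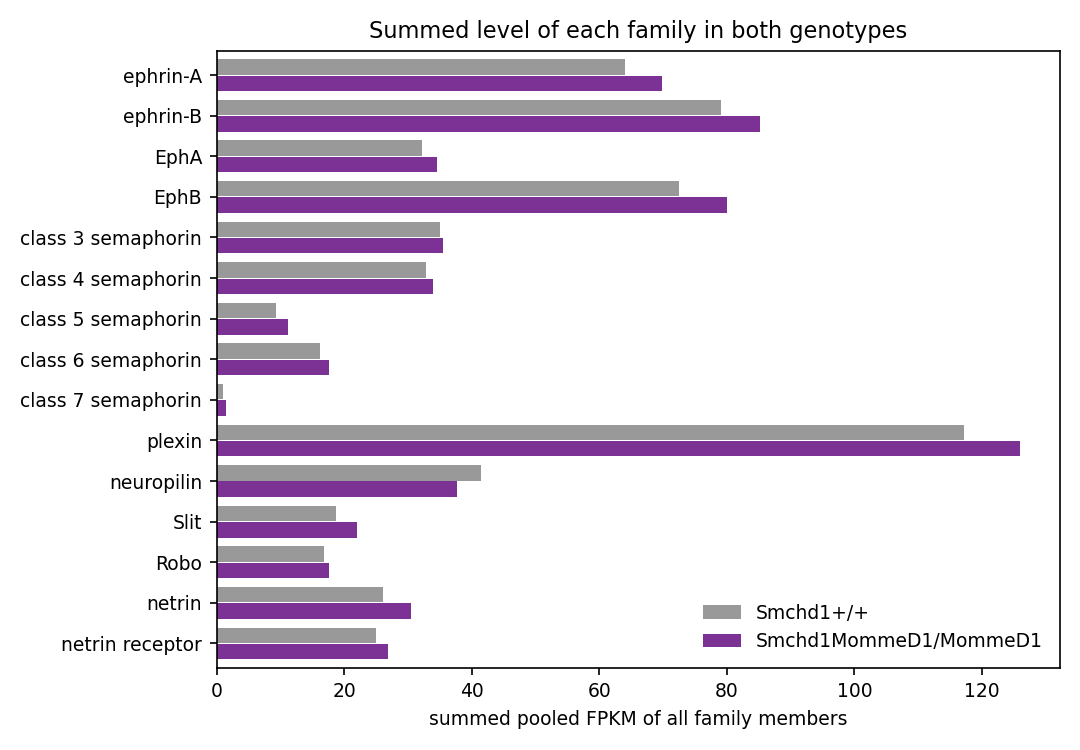
Summed pooled FPKM of all members of each family (horizontal bars from 0) in Smchd1+/+ (grey) and Smchd1MommeD1/MommeD1 embryos (purple). Plexins had the highest sum in both genotypes, the sums differed by the largest factor for class 7 semaphorins, with *Sema7a* as the sole gene (1.48-fold higher in the mutant pool, no pseudocount added), and neuropilins were the family whose deposited sum was lower in the mutant pool.

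The Slits and Robo receptors keep axons from crossing or recrossing the midline. Of the 3 Slits, all with a mean of 5 FPKM or more, 2 were higher in the mutant pool by more than 1.2-fold. Among all symbol loci of that abundance, 540 of 8693 were at least 1.2-fold higher. Of the 3 counted Robo receptors 1 was higher, 1 lower and 1 nearly level. *Slit2* was listed at 8.56 FPKM in the mutant and 6.94 FPKM in the wildtype pool, 1.23-fold higher. *Slit1*, the most restricted to the nervous system of the 3, was at 6.15 and 4.50 FPKM, 1.36-fold higher, and *Slit3* was level at 7.30 and 7.31 FPKM. *Slit2* and *Slit3* thus changed places as the most abundant Slit, although each comes from a locus shared with another entry.

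*Robo1*, the most abundant receptor of Slits, was at 12.0 and 11.5 FPKM, whereas *Robo2*, a receptor of spinal and retinal axons, was at 3.05 and 4.09 FPKM, 1.33-fold lower in the mutant pool. *Robo4*, the endothelial member of the family, lies on chromosome 9 from 37402037 to 37414123. It was at 2.22 FPKM in the mutant and 1.15 FPKM in the wildtype pool, 1.86-fold higher. Of 10 endothelial markers, among them *Pecam1*, *Cdh5* and *Kdr*, none was past 1.5-fold either way, and the median log2 ratio was -0.03. Their summed level was 116.1 FPKM in the mutant and 115.4 FPKM in the wildtype pool. These markers all had a mean of 5 FPKM or more, unlike *Robo4*. At that abundance 1.28% of symbol loci were at least 1.5-fold higher, against 8.28% at 1 to 5 FPKM. How *Robo4* relates to endothelial cells in these embryos was not tested.

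*Robo3*, which lies beside *Robo4* and lets commissural axons reach the midline, was at 0.403 FPKM in the mutant and 0.106 FPKM in the wildtype pool. It fell below the minimum of 1 FPKM and was not counted. With 0.1 FPKM added to both values the ratio was 2.44, at levels too low to weigh.

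Both counted netrins and 3 of the 4 counted netrin receptors were listed higher in the mutant pool. *Ntn1*, secreted by the floor plate, made up most of the netrin level and was at 23.1 FPKM in the mutant and 21.1 FPKM in the wildtype pool. *Ntn3* was at 5.63 and 4.10 FPKM, 1.36-fold higher, but its entry also carries *Tbc1d24*, so the reads of these genes are not separated. *Ntn4*, a netrin of basement membranes, was at 1.41 and 0.583 FPKM, from a locus shared with other entries. Its mean of 0.995 FPKM was just under the minimum, and the ratio was 2.21 with 0.1 FPKM added to both values.

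*Dcc*, the attractive netrin receptor, lies on chromosome 18 from 71253632 to 72351069. It was at 2.02 FPKM in Smchd1MommeD1/MommeD1 and 1.12 FPKM in Smchd1+/+ embryos, 1.74-fold higher. *Unc5a*, a repulsive receptor of spinal cord neurons, was at 3.70 and 2.65 FPKM, 1.39-fold higher, from a locus shared with 1 other entry. *Unc5b*, an Unc5 receptor also found on vessels and the most abundant netrin receptor, was level at 14.1 and 14.6 FPKM, and *Unc5c* was at 6.90 and 6.54 FPKM.

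There were 3 X-linked members, of interest because *Smchd1* acts on the inactive X chromosome, which male cells lack. *Efnb1* was 1.18-fold higher as given above, *Plxna3* was at 4.06 FPKM in the mutant and 4.62 FPKM in the wildtype pool, 1.14-fold lower, and *Plxnb3* was close to 0 at 0.0192 and 0.00577 FPKM. Neither of the counted genes was past 1.2-fold, and they differed in opposite directions.

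In all, 11 members were below the minimum, and none was at 0 in both genotypes. Besides *Robo3*, *Ntn4* and *Plxnb3*, these were *Epha5*, *Epha6*, *Epha8*, *Epha10*, *Ntn5*, *Sema4a*, *Sema4f* and *Unc5d*. *Sema4a* was the highest of the latter at 0.895 and 0.811 FPKM, and *Epha6* the lowest at 0.0256 and 0.00341 FPKM.

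Guidance genes outside these families, from lists of symbols, were also mostly level. Of 24 further cues, receptors and co-receptors, 23 were listed and 17 reached the minimum. Of these 1 (5.88%) was at least 1.5-fold higher, against 3.2% of all symbol loci of the same minimum, and none was lower. This was *Islr2*, a membrane protein of growing sensory and motor axons, at 2.11 FPKM in the mutant and 0.642 FPKM in the wildtype pool. The median log2 ratio was 0.10. *Neo1*, a receptor of netrins and repulsive guidance molecules, was at a log2 ratio of -0.01.

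Of 53 signalling proteins that act inside the growth cone, 50 reached the minimum, with a median log2 ratio of 0.01. At least 1.5-fold higher were 2 (4%), near the 3.2% of all symbol loci, and none was lower. These 2 were *Dpysl4*, at 15.5 and 8.91 FPKM, and *Crmp1*, at 39.9 and 26.0 FPKM, both of the collapsin response mediator family that acts downstream of semaphorin 3A. *Srgap3*, a GTPase-activating protein that binds Robo, was just short of the bar at 11.8 and 7.87 FPKM.

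Markers of some cell types differed by far more between the pools than the guidance genes did. Of 14 neuron markers that reached the minimum, 12 were at least 1.5-fold higher in the mutant pool, with a median log2 ratio of 1.40, and all 14 were above 0. *Tubb3*, the neuronal tubulin, was at 99.9 FPKM in the mutant and 37.0 FPKM in the wildtype pool, and *Cntn2*, an adhesion protein of commissural axons, was at 4.76 and 0.925 FPKM. *Gap43*, a growth cone protein that is also in the signalling list, and *Isl1* were the markers within 1.5-fold. The summed level of the neuron markers was 2.18-fold higher, beside 1.07-fold for the 69 guidance genes. *Epha3*, *Dcc*, *Unc5a*, *Slit1* and *Islr2*, all higher in the mutant pool, are expressed in subsets of neurons as well as elsewhere. *Robo2* and *Plxna4*, described above as receptors of axons, were 1.33-fold and 1.26-fold lower in the mutant pool. *Epha4* and *Epha7*, described above with roles in the hindbrain and neural tube, were 1.12-fold higher and 1.08-fold lower. The part that the neuron markers' difference had in any of these was not tested.

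Of 12 neural progenitor markers, 1 (*Fabp7*) was at least 1.5-fold higher, with a median log2 ratio of 0.20, and of 8 neural crest and 10 mesenchyme markers none was past 1.5-fold, with medians of -0.10 and 0.05. Of 10 tail bud markers, 6 were at least 1.5-fold lower (median -1.03), with *Cdx4* at 4.24 and 14.4 FPKM, and 6 of 8 erythroid markers were at least 1.5-fold higher (median 0.99), with a summed level of 12697 FPKM in the mutant and 6012 FPKM in the wildtype pool. Of 10 visceral endoderm markers 6 reached the minimum, of which 4 were at least 1.5-fold lower and *Afp* was higher (median -0.77). The summed levels in the mutant and wildtype pools were 261.2 and 119.7 FPKM for neuron markers, 45.4 and 75.9 FPKM for tail bud markers and 40.6 and 53.3 FPKM for visceral endoderm markers. No marker that was read was at 0 in both pools, and *Map2* was not analysed here. Whether the differences in *Epha3*, *Robo4*, *Dcc* and *Sema3e* move with any of these cell types was not tested, and genotype, litter and exact stage cannot be told apart from pooled values.

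**Figure D4:**
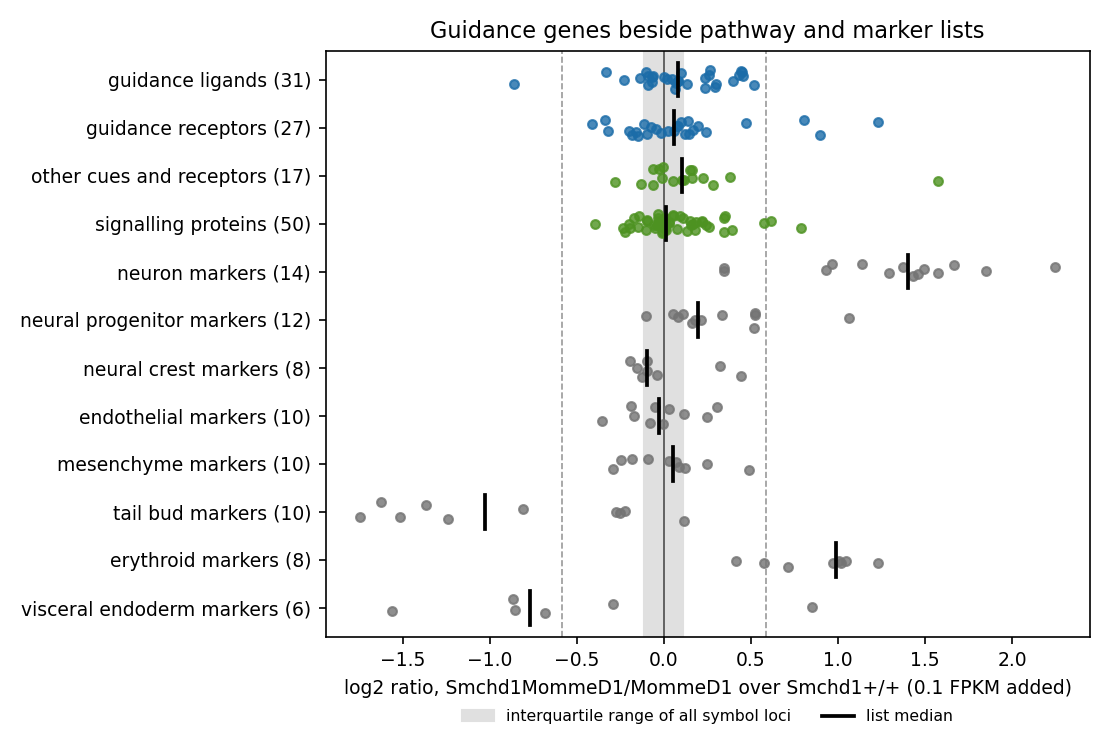
Log2 ratio of Smchd1MommeD1/MommeD1 to Smchd1+/+ (horizontal) for guidance ligands and receptors (blue), other guidance genes (green) and cell type markers (grey), each point being 1 gene with a mean of 1 FPKM or more and each black bar a list median, with points spread vertically for legibility. Guidance genes gather around 0, with medians of 0.08 for ligands and 0.06 for receptors, whereas neuron markers have a median of 1.40 and tail bud markers of -1.03.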

How the data were processed

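RNA-seq libraries of 6 male E9.5 embryos, 3 of each genotype, were analysed. Per the submitters' processing notes, TopHat2 2.0.6, Bowtie2 2.0.2, Cufflinks 2.0.2 and Cuffdiff 2.0.2 were used with mm10. The authors deposited 1 FPKM value per genotype and locus, pooled over embryos, so no replicate, count or depth was available. Their table also holds a fold change, test statistic, p-value and q-value of the authors' own comparison, which were not used. Columns were assigned to genotypes from the heading of the study's own copy of the table.

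Members were found by symbol among loci with a gene name. Log2 ratios of mutant to wildtype were taken after adding 0.1 FPKM, for loci with a mean of 1 FPKM or more, and loci at least 1.5-fold apart were counted. Locus starts were counted from 1. Promoters came from RefSeq (GRCm38.p6). Genes were named if past 1.5-fold, most abundant in their family, or X-linked; others were added after their values were seen, to account for every member. In the other lists up to 4 genes of large difference were named, with *Neo1*, *Srgap3*, *Tubb3*, *Gap43*, *Isl1* and the endothelial examples added later. The members, lists and thresholds were chosen with earlier results of these data known. The counting was tested on simulated data. Python 3.11.15, numpy 2.4.6, pandas 2.3.3 and matplotlib 3.10.9 were used.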

Additional observations from a re-analysis of the deposited data

How the results depend on the processing

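No paired analysis was possible because the table holds 1 pooled value per genotype, and for the same reason no embryo could be left out. Of 56 recomputed counts and medians, 44 stayed within 1.5 times the count or 0.1 of the log2 median reported, none of the medians moved further, and 12 counts moved. The count of members at least 1.5-fold higher, 3 as reported, was 1 with a pseudocount of 1 FPKM (with 0 lower), 5 with a minimum mean of 0.1 FPKM or with no minimum, where *Ntn4* and *Robo3* were added, and 0 with a minimum of 5 FPKM (with 0 lower). The share of all loci at least 1.5-fold higher moved too, from 3.2% to 1.83% with that pseudocount, 5.92% at 0.1 FPKM, 4.55% with no minimum and 1.28% at 5 FPKM. The planned lower bar, which lies between 1.2-fold and 1.5-fold, gave 10 higher and 4 lower (17.2% and 6.90% of members against 8.28% and 4.28% of all loci), the bar of 1.2-fold used in its place gave 13 higher and 5 lower, and a bar of 2-fold gave 1 higher (*Epha3*) and 0 lower. Rescaling to the same total, to the same upper quartile or to the median locus, and leaving out the entry with more than 1 symbol, kept *Epha3*, *Robo4*, *Dcc* and *Sema3e* as the members past 1.5-fold. So did leaving out members whose locus is shared, which, like the bar of 1.2-fold, was chosen after seeing the data. *Epha3*, *Robo4*, *Dcc* and *Sema3e* kept their direction under the pseudocounts and scalings tried. So did the X-linked members and the most abundant member of each family. Of the 110 log2 ratios recomputed for these genes, 7 moved by 0.1 or more and none reversed. Other named genes were not recomputed one by one for this. With 1 pooled value per genotype and unknown depth, no error was computed for any member, and the authors' own test values were not used.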
